A study of Mus musculus with 27 samples.

Results

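The 6 mouse genes of the IgG Fc receptor system, Fcgr1, Fcgr2b, Fcgr3, Fcgr4, Fcer1g and Fcgrt, were followed in the brains of mice that had received antibodies. They were taken by symbol, through the GENCODE M21 annotation, from the 55487 genes of the deposited count matrix, and all 6 passed the filter that left 20271 genes for testing. Fcgr4 passed it only through the libraries of mice given antibodies to IgLON5, where its counts were high. Bulk RNA-seq was performed on hippocampi (13 libraries) and cortices (14 libraries) of male C57Bl/6J wild-type mice, 8 weeks old, after 14 days of infusion into the right lateral ventricle at 0.25 µl/h. The tissue was from the contralateral, uncannulated hemisphere. The infusate was PBS (5 hippocampi and 5 cortices), control IgG (4 hippocampi and 5 cortices; mIgG in the labels) or patient-derived antibodies to the neuronal cell adhesion protein IgLON5 (4 hippocampi and 4 cortices; IgLON5 in the labels). These groups are called PBS, pCtrl and α-IgLON5#1 in what follows. Both antibodies were of human origin, the second one being a polyclonal pool of a single patient, purified on the antigen, so that a single preparation stands for the treatment. The labels call the control a monoclonal IgG and the study's methods a serum IgG. A library's number in the labels (for example 8) is written here as the mouse, and 13 of the 14 mice have both tissues. The question was whether the receptors that read IgG differ between mice given the autoantibody and mice given control IgG or the vehicle.

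Fcγ receptors bind the Fc part of IgG in immune complexes or on opsonized surfaces and start phagocytosis, cytokine release and antigen uptake. Fcgr1, Fcgr3 and Fcgr4 encode the ligand-binding chains of the activating receptors FcγRI, FcγRIII and FcγRIV, which signal through the immunoreceptor tyrosine-based activation motif (ITAM) of the common γ chain, encoded by Fcer1g. Fcgr2b encodes the inhibitory receptor FcγRIIB, whose inhibitory motif (ITIM) recruits phosphatases, and Fcgrt encodes the heavy chain of FcRn, which pairs with β2-microglobulin and salvages or transports IgG across cells. In the brain, microglia and the macrophages at its borders are the main carriers of the Fcγ receptors, whereas FcRn is also made by endothelial cells and the choroid plexus.

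Of the genes, 4 stand together on mouse chromosome 1 (GRCm38). Fcgr2b spans chr1:170958617-170976547 on the minus strand, Fcgr4 spans chr1:171018920-171029761 on the plus strand, Fcgr3 spans chr1:171051174-171064935 and Fcer1g spans chr1:171229572-171234365, both on the minus strand. Fcgr1 lies apart at chr3:96282909-96293969 and Fcgrt at chr7:45092990-45103851, both on the minus strand. The stretches before the transcript start are shown for the 3 genes of the ligand-binding activating chains, because these chains bind IgG and each stretch holds a match to a fixed motif. All 6 genes matched an entry of the RefSeq promoter table (GRCm38.p6), and the sequences are written 5′ to 3′ on the gene's strand, without bases in annotated exons of the gene. The RefSeq start of Fcgr3 lies inside the span of the GENCODE gene, so that the stretch shown for it is intronic there. Capitals mark matches on either strand to the PU.1 motif GAGGAA, which is bound by the myeloid factor PU.1, to the interferon-γ activated site TTCNNNGAA (GAS) or to the interferon-stimulated response element (ISRE, searched as GAAA and GAAA parted by 2 bases of any kind).
Fcgr1 promoter, chr3:96293970-96294219, minus strand: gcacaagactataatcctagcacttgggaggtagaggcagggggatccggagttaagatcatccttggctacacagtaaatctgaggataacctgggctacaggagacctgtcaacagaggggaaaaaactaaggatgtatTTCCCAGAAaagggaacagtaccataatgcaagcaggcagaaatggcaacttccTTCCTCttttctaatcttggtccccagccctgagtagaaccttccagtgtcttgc
Fcgr3 promoter, chr1:171059404-171059626, minus strand: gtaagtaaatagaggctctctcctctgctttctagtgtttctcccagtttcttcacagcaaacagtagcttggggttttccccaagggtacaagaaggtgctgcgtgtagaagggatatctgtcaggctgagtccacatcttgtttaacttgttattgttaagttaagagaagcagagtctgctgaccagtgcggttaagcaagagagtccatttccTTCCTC
Fcgr4 promoter, chr1:171018676-171018919, plus strand: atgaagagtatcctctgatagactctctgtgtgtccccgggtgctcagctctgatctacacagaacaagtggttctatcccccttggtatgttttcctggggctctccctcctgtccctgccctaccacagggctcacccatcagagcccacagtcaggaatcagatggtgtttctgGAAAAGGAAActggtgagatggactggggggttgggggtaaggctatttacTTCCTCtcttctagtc

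A PU.1 match, read on the opposite strand as TTCCTC, began 55 bases before the start of Fcgr1, 22 bases before that of Fcgr4 and 6 bases before that of Fcgr3. Fcgr1 also held a GAS match, TTCCCAGAA, 109 bases before its start, and Fcgr4 an ISRE match, GAAAAGGAAA, 73 bases before its start. No match to the 3 motifs was found in the windows of Fcgr2b, Fcer1g and Fcgrt, which says only that these letters are not in these windows of 300 bases. The RefSeq start of Fcgr2b also lies inside the span of its GENCODE gene. Of the 250 bases before that start, 187 are in annotated exons of the gene, so that its window is mostly transcribed sequence. Of the 32851 windows in the RefSeq table, 28.3% held the PU.1 motif, 8.3% the GAS motif and 3.44% the ISRE motif. The matches describe sequence, and binding was not measured.

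Libraries held 19385642 to 58550621 counts. CPM values below are counts relative to the normalized total of the library. The labels name neurons as the cell type, but the tissue was bulk brain. Markers of neurons, oligodendrocytes, astrocytes, microglia and endothelial cells were all detected in every group, and the summed level of 10 homeostatic microglia genes was 333 to 765 CPM. With bulk tissue, more cells of a type and more RNA per cell cannot be told apart in any value below. Between groups, all p-values are from edgeR's quasi-likelihood test unless another test is named, and "called" means both an adjusted p below 0.05 and more than a 2-fold change.

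In hippocampi of α-IgLON5#1 mice, the 3 activating receptors, the common γ chain and the inhibitory receptor were all higher than in pCtrl hippocampi, and FcRn was not. Fcgr4 differed most, by 14.1-fold, followed by Fcer1g (4.0-fold), Fcgr2b (3.30-fold), Fcgr1 (2.59-fold) and Fcgr3 (2.15-fold). Thus 5 of the 6 genes were called, all higher, where 2.21% of all genes tested were called higher and 2.45% in either direction. Fcgr4 is counted here although it entered the test only through α-IgLON5#1 libraries. At 10 counts in every library it was not tested, and 4 of the genes were called, where 229 of all 15430 genes were. Against PBS, the same 5 genes were called, where 2.56% of all genes were called higher and 2.67% in either direction. Both comparisons use the same 4 α-IgLON5#1 libraries. For each of the 5 genes, the lowest α-IgLON5#1 hippocampus was above the highest of the 9 control hippocampi. Among mice numbered 8 to 17, the range that holds all α-IgLON5#1 mice and leaves 2 pCtrl hippocampi, 0 of the 6 genes passed both thresholds, although their log2 fold changes stayed between 0.99 and 3.32 for the 5 genes (adjusted p = 0.0392 to 0.186). Over all genes, 50 of 20271 were called in that subset, against 496 with all mice.

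**Figure D1:**
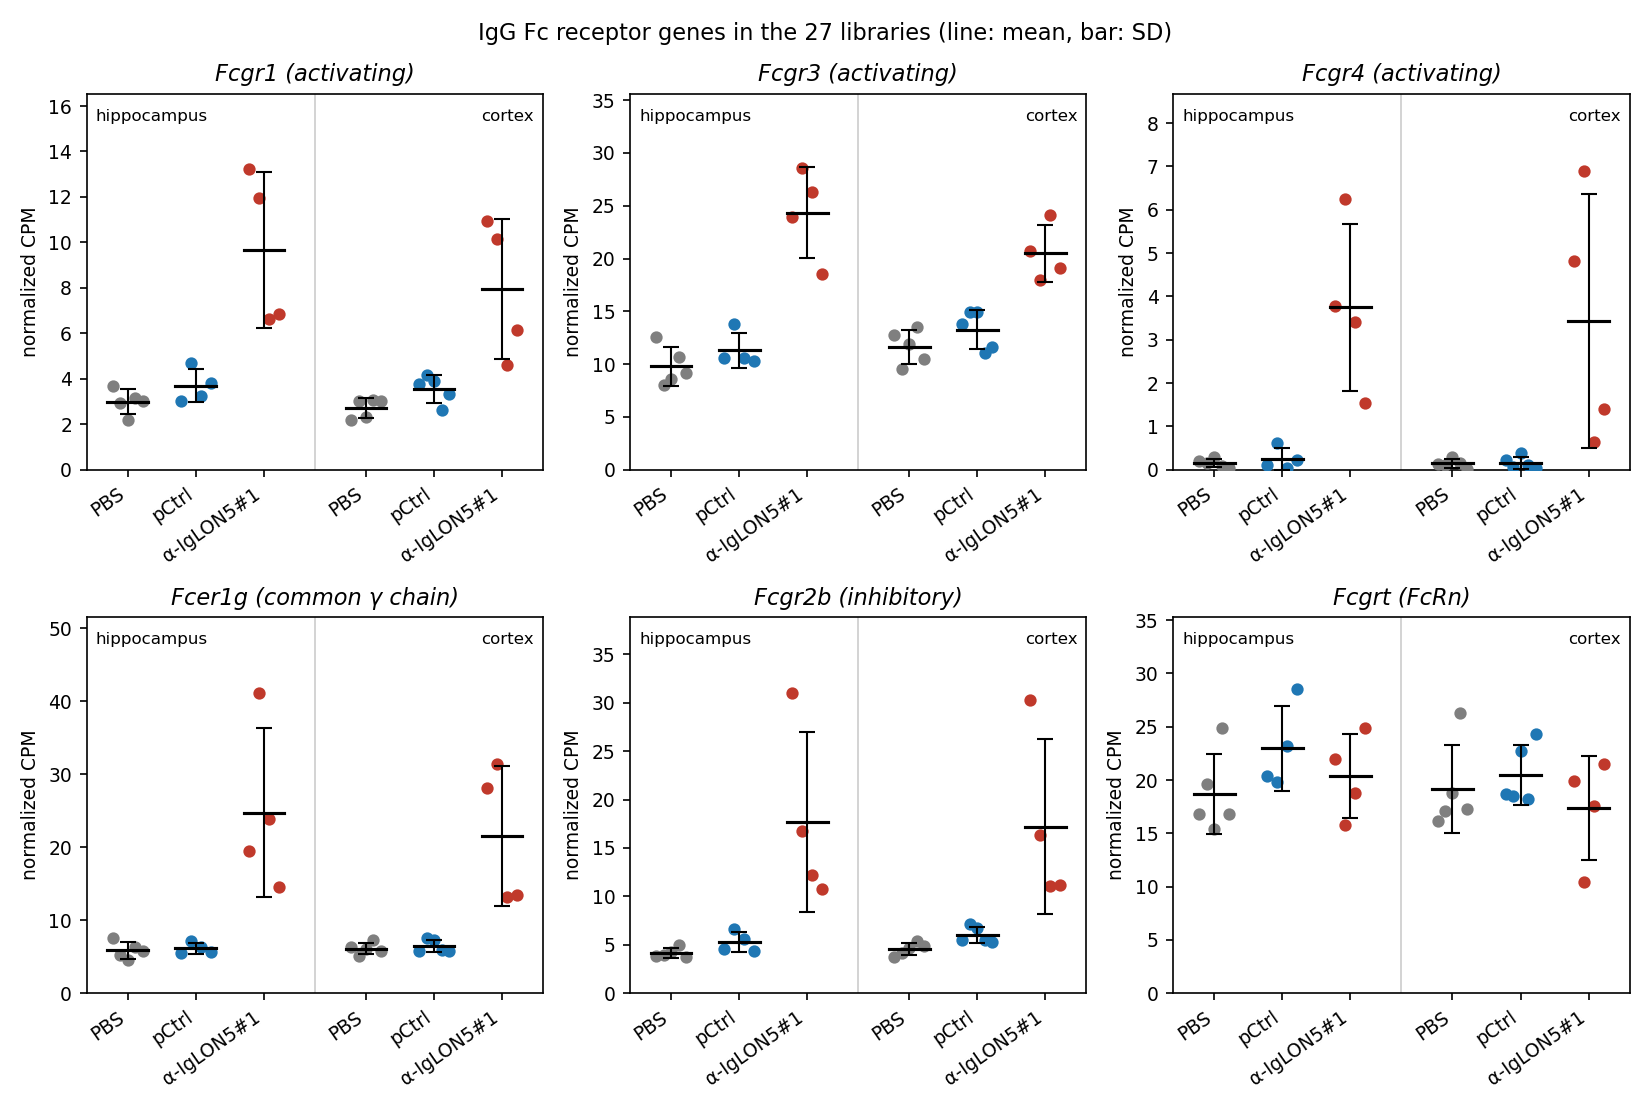
Normalized CPM (vertical axes, linear from 0) of the 6 IgG Fc receptor genes in each library, by treatment and tissue. Points are libraries, lines are group means and bars are SD. All 8 α-IgLON5#1 libraries lie above the 19 control libraries for Fcgr2b, Fcgr3, Fcgr4 and Fcer1g, and within each tissue for Fcgr1, whereas the 3 groups overlap for Fcgrt.

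Fcgr1, the high-affinity receptor that binds monomeric IgG, was at 13.2, 11.9, 6.65 and 6.85 CPM in the hippocampi of α-IgLON5#1 mice 8, 9, 16 and 17. In the 4 pCtrl hippocampi (mice 10, 15, 37 and 75) it was at 3.02, 4.68, 3.26 and 3.83 CPM. In the 5 PBS hippocampi (mice 14, 32, 33, 38 and 74) it was at 3.68, 2.95, 2.17, 3.18 and 3.01 CPM. Mice 8 and 9 were thus well above mice 16 and 17, and all 4 were above every control. Fcgr1 had a log2 fold change of 1.37 ± 0.25 (SE) against pCtrl (adjusted p = 0.000742) and 1.68 ± 0.23 against PBS (adjusted p = 1.82e-05).

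Fcgr3, a low-affinity activating receptor, varied least among the treated hippocampi of the 5 called genes. Its levels in α-IgLON5#1 hippocampi, in the same order of mice, were 23.9, 28.6, 26.3 and 18.5 CPM. pCtrl hippocampi were at 10.5, 13.8, 10.5 and 10.3 CPM and PBS hippocampi at 12.6, 8.01, 8.59, 10.7 and 9.18 CPM. The lowest treated library thus stood above the highest control library, mouse 15, and the means were 24.3 ± 4.32 (SD, n = 4) and 11.3 ± 1.66 (n = 4) CPM. Its log2 fold change was 1.10 ± 0.15 against pCtrl (adjusted p = 2.17e-05) and 1.31 ± 0.14 against PBS (adjusted p = 4.37e-07).

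Fcgr4, the activating receptor that binds the IgG2a/c and IgG2b subclasses of the mouse, was close to absent in controls. It had 54 to 111 counts in the 4 α-IgLON5#1 hippocampi, 2 to 33 in pCtrl hippocampi and 2 to 10 in PBS hippocampi. In CPM, the α-IgLON5#1 hippocampi were at 3.79, 6.25, 3.40 and 1.55, the pCtrl hippocampi at 0.102, 0.620, 0.0476 and 0.221, and the PBS hippocampi at 0.205, 0.148, 0.293, 0.0890 and 0.0471. pCtrl mouse 15, with 33 counts, was the highest control. The log2 fold change was 3.82 ± 0.67 against pCtrl (adjusted p = 0.000614) and 4.57 ± 0.68 against PBS (adjusted p = 4.3e-05). Without pCtrl mouse 15 the first was 4.88, still called.

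Fcer1g, without which the activating chains neither reach the surface stably nor signal, was at 19.4, 41.1, 23.9 and 14.5 CPM in α-IgLON5#1 hippocampi. pCtrl hippocampi were at 5.46, 7.11, 6.33 and 5.70 CPM, and PBS hippocampi at 7.61, 5.23, 4.57, 6.35 and 5.75 CPM. The control libraries lay close together, and the treated ones spread over a range of 14.5 to 41.1 CPM with mouse 9 on top. Fcer1g had a log2 fold change of 2.0 ± 0.27 against pCtrl (adjusted p = 1.75e-05) and 2.06 ± 0.25 against PBS (adjusted p = 2.37e-06).

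Fcgr2b, the inhibitory receptor, was higher too. It was at 31.0, 16.8, 12.2 and 10.7 CPM in α-IgLON5#1 hippocampi, with mouse 8 far above the others. pCtrl hippocampi were at 4.58, 6.66, 5.62 and 4.37 CPM and PBS hippocampi at 3.85, 3.95, 4.31, 4.99 and 3.72 CPM, so that mouse 17, the lowest treated library, was still above all controls. Fcgr2b had a log2 fold change of 1.72 ± 0.28 against pCtrl (adjusted p = 0.000275) and 2.08 ± 0.27 against PBS (adjusted p = 6.56e-06). Without mouse 8 the first was 1.31, and the gene was still called.

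Fcgrt, the heavy chain of FcRn, did not follow the receptors. It ranged from 15.8 to 24.8 CPM in α-IgLON5#1 hippocampi, from 19.8 to 28.5 in pCtrl and from 15.5 to 24.9 in PBS hippocampi, and the groups overlapped. The log2 fold change was -0.17 ± 0.19 against pCtrl (95% interval -0.56 to 0.22, adjusted p = 0.659) and 0.13 ± 0.18 against PBS (-0.25 to 0.50, adjusted p = 0.826). Its partner B2m, which also serves MHC class I, was at 165 ± 33.3 CPM in α-IgLON5#1 (SD, n = 4) and 71.3 ± 5.24 CPM in pCtrl hippocampi (n = 4), a log2 fold change of 1.21 ± 0.12 (adjusted p = 4.61e-07). The chains of FcRn therefore differed in what passed the test, B2m being called and Fcgrt not.

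**Figure D2:**
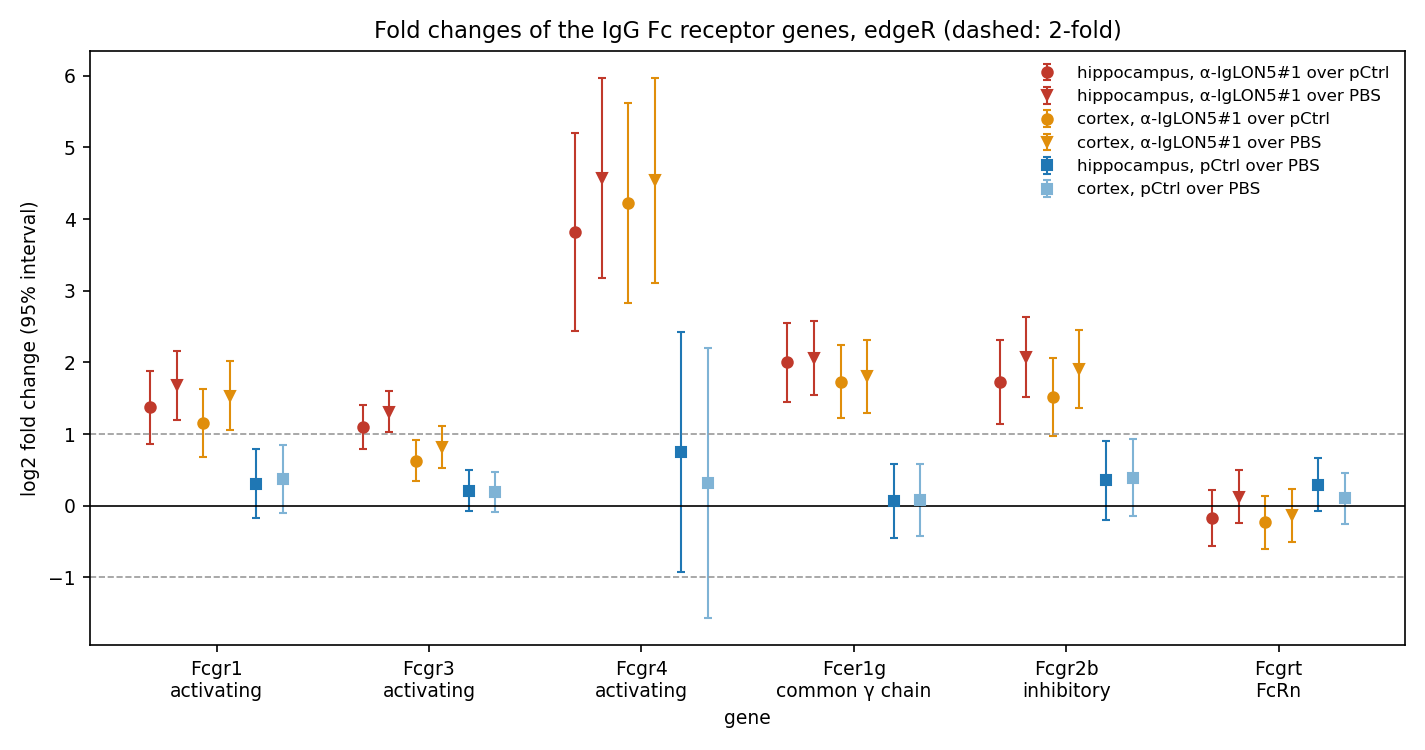
Log2 fold changes (vertical axis) with 95% intervals for each gene in 6 comparisons. Circles and triangles compare α-IgLON5#1 with pCtrl and PBS, squares compare pCtrl with PBS, and dashed lines mark 2-fold. The intervals of Fcgr1, Fcgr3, Fcgr4, Fcer1g and Fcgr2b lie above 0 in the α-IgLON5#1 comparisons of both tissues, and the intervals of all 6 genes cross 0 between pCtrl and PBS.

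In cortices the same 5 genes were higher in α-IgLON5#1 mice, with Fcgr3 below 2-fold. Against pCtrl, 4 of the 6 genes were called (Fcgr1, Fcgr2b, Fcgr4 and Fcer1g), where 2.14% of all genes were called higher and 2.16% in either direction. Fcgr4 is again counted although it entered the test only through α-IgLON5#1 libraries. Fcgr3 passed the p threshold with a fold change of 1.54, below 2, and 3.46% of all genes passed the p threshold alone. Against PBS, the same 4 genes were called (background 2.24%, higher and in either direction) and Fcgr3 was again below 2-fold, at 1.76-fold (3.05% of all genes passed the p threshold alone). As in hippocampi, 0 genes passed both thresholds among mice numbered 8 to 17, with log2 fold changes of 1.02 to 3.78 for the 4 genes and adjusted p of 0.102 to 0.228. Of all 20271 genes, 9 were called in that subset of cortices, against 438 with all mice.

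Fcgr4 again had the largest fold change of the 6 genes in cortices. It was at 4.81, 6.89, 0.643 and 1.40 CPM in the cortices of α-IgLON5#1 mice 8, 9, 16 and 17, which is 177, 191, 27 and 78 counts. pCtrl cortices had 1 to 16 counts (0.0333 to 0.377 CPM) and PBS cortices 1 to 9 (0.0275 to 0.302 CPM). Mice 8 and 9 were several times above mice 16 and 17, and mouse 16 was the treated library nearest to the controls. The log2 fold change was 4.22 ± 0.68 against pCtrl (adjusted p = 0.000268) and 4.54 ± 0.70 against PBS (adjusted p = 0.000122), and without pCtrl mouse 15 the first was 4.91.

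Fcgr1 was at 10.9, 10.1, 4.60 and 6.15 CPM in α-IgLON5#1 cortices. It was at 3.75, 4.15, 3.91, 2.63 and 3.33 CPM in pCtrl cortices (mice 10, 11, 15, 37 and 75) and at 2.19, 3.05, 2.32, 3.06 and 3.02 CPM in PBS cortices (mice 14, 32, 33, 38 and 74). Mouse 16 was only slightly above the highest pCtrl library, mouse 11. Over pCtrl, the log2 fold change was 1.16 ± 0.23 (adjusted p = 0.00273), and without mouse 8 it was 0.96 (adjusted p = 0.0336), below 2-fold and no longer called.

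Fcgr3 was at 20.8, 18, 24.1 and 19.1 CPM in α-IgLON5#1 cortices. It was at 13.8, 15.0, 15.0, 11.0 and 11.6 CPM in pCtrl cortices and at 12.8, 9.52, 11.9, 13.5 and 10.5 CPM in PBS cortices. The lowest treated library, mouse 9, was above the highest control libraries, pCtrl mice 11 and 15. Fcgr3 had a log2 fold change of 0.63 ± 0.14 against pCtrl (adjusted p = 0.00804) and 0.82 ± 0.14 against PBS (adjusted p = 0.000445).

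Fcer1g was at 28.1, 31.4, 13.2 and 13.4 CPM in α-IgLON5#1 cortices and from 5.79 to 7.56 CPM in pCtrl and 5.09 to 7.31 CPM in PBS cortices. Its treated libraries fell into mice 8 and 9, at 28.1 and 31.4 CPM, and mice 16 and 17, at 13.2 and 13.4 CPM. The log2 fold change against pCtrl was 1.73 ± 0.25 (adjusted p = 7.49e-05). Fcgr2b was at 30.2, 16.4, 11.0 and 11.2 CPM, against 5.25 to 7.13 CPM in pCtrl and 3.73 to 5.42 CPM in PBS cortices, with a log2 fold change of 1.52 ± 0.26 over pCtrl (adjusted p = 0.000628). Fcgrt spread from 10.5 to 21.5 CPM in α-IgLON5#1 cortices and its log2 fold change was -0.23 ± 0.18 (95% interval -0.61 to 0.14, adjusted p = 0.584).

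Control IgG did not differ detectably from the vehicle in any of the 6 genes. Between pCtrl and PBS, 0 of 6 genes were called in hippocampi (0 also by DESeq2 and 0 at an unadjusted p under 0.05), where 0.0641% of all genes were called. That share rests on 13 genes, a number that was 127 without pCtrl mouse 15 and 0 without any 1 of 4 other libraries. In cortices 0 of 6 were called as well (0 by DESeq2 and 0 unadjusted), with 0% of all genes called and 1650 genes at an unadjusted p under 0.05. Log2 fold changes of pCtrl over PBS were between 0.07 and 0.75 in hippocampi and between 0.08 and 0.39 in cortices, all 12 of them above 0, with every 95% interval crossing 0. Without pCtrl mouse 15 those of Fcgr4 were -0.30 in hippocampi and -0.37 in cortices, and that of Fcer1g in hippocampi was -0.01. The upper bounds were 0.79 for Fcgr1, 0.91 for Fcgr2b, 0.50 for Fcgr3, 0.58 for Fcer1g and 0.66 for Fcgrt in hippocampi, so that 2-fold differences lay outside them. For Fcgr4 the interval ran from -0.92 to 2.43, and a 2-fold difference was not detectable at its counts.

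In vehicle mice no gene of the 6 passed the test between tissues. Between PBS cortices and PBS hippocampi, 0 of 6 were called (0 by DESeq2 and 0 at an unadjusted p under 0.05), where 5.57% of all genes were called. Fcgr3, at 11.6 ± 1.64 CPM in cortices and 9.81 ± 1.84 CPM in hippocampi (SD, n = 5 each), had the difference nearest to the threshold, a log2 fold change of 0.25 ± 0.14 (adjusted p = 0.189). The 95% intervals lay between -0.60 and 0.67 on the log2 scale for 5 genes, and Fcgr4 had one from -1.96 to 1.78.

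The size of the response was compared between tissues as an interaction. For α-IgLON5#1 over pCtrl, 0 of 6 genes passed (0 by DESeq2), as did 0% of all genes, and 2158 of all genes were at an unadjusted p under 0.05. Fcgr3 was the 1 member at an unadjusted p under 0.05, its log2 fold change being 0.48 ± 0.20 larger in hippocampi (95% interval 0.05 to 0.90, adjusted p = 0.4). Over PBS its difference was 0.50 ± 0.20 (adjusted p = 1), where 0.00493% of all genes passed. The differences of Fcgr1, Fcgr2b and Fcer1g over pCtrl were 0.22, 0.21 and 0.27 with intervals that crossed 0, and that of Fcgr4 was -0.40 with an interval from -2.44 to 1.63.

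For several genes the same α-IgLON5#1 mice were highest in both tissues, and these were not the same mice for every gene. Mouse 8 was highest and mouse 9 second in both tissues for Fcgr1 and Fcgr2b. Mouse 9 was highest in both tissues for Fcgr4 and Fcer1g. Fcgr2b matched most closely between tissues, with 31.0 CPM in the hippocampus and 30.2 CPM in the cortex of mouse 8 and 16.8 and 16.4 CPM in mouse 9. The widest disagreement was Fcgr4 in mouse 16, at 3.40 CPM in the hippocampus and 0.643 CPM in the cortex. Fcgrt ran the other way in mouse 9, which had the lowest level of the treated mice in both tissues (15.8 and 10.5 CPM), whereas mouse 17 had the highest (24.8 and 21.5 CPM). With 4 mice these orders are a description.

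**Figure D3:**
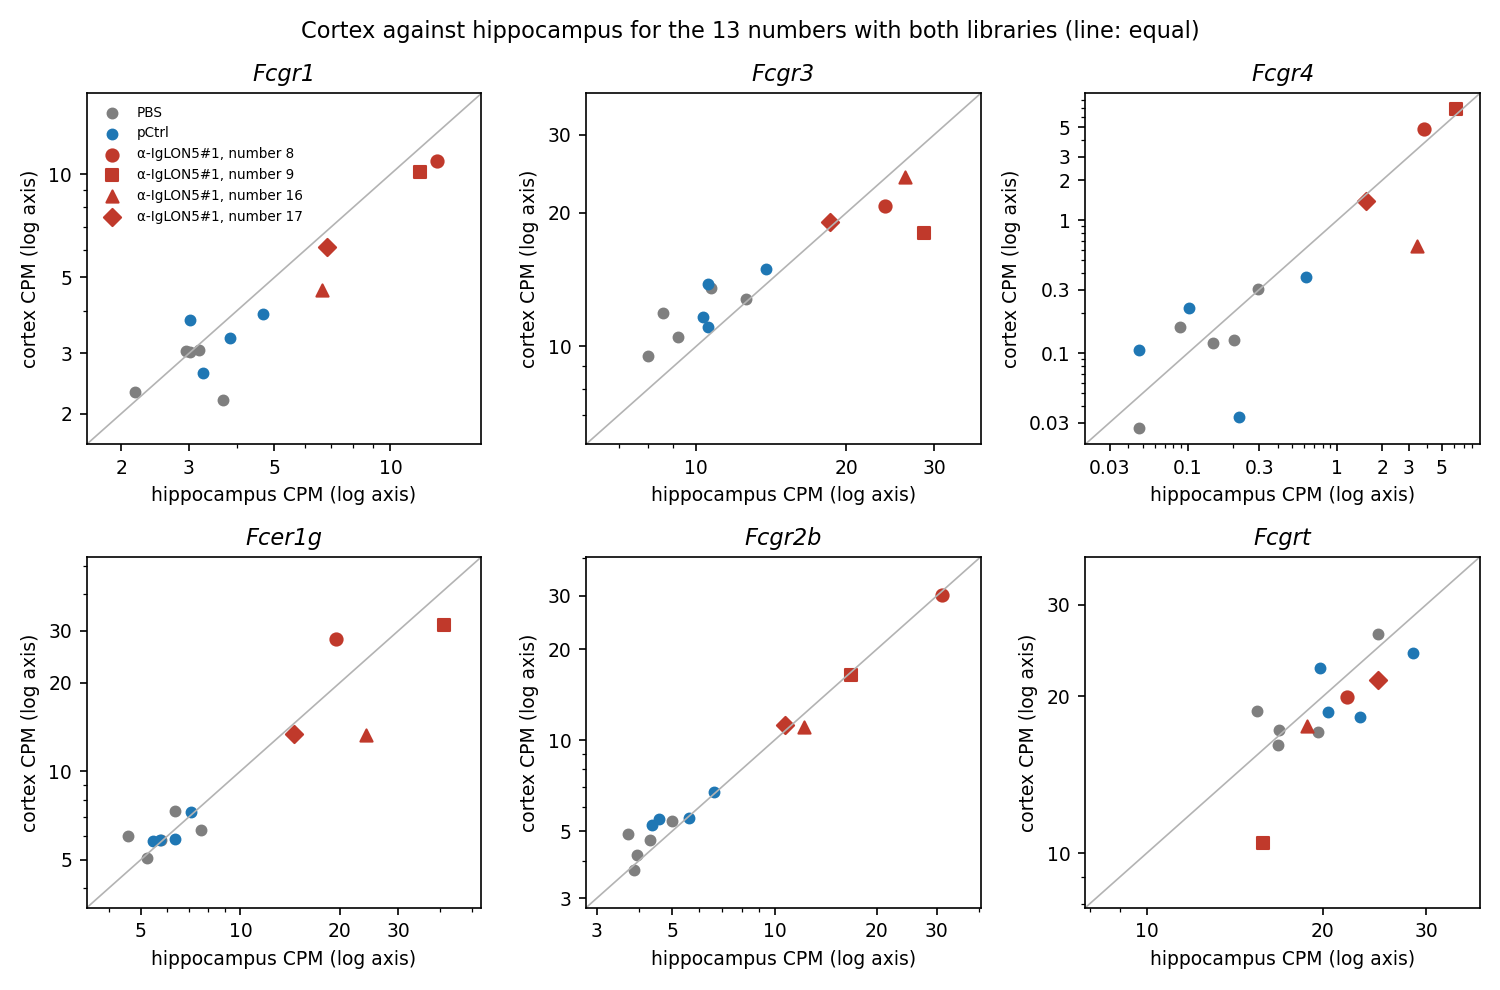
CPM in the cortex (vertical axis, log scale) against CPM in the hippocampus (horizontal axis, log scale) for the 13 mice with both libraries, 1 panel per gene. Red symbols are the 4 α-IgLON5#1 mice, blue points pCtrl, grey points PBS, and the line marks equal levels. Fcgr2b lies along the line, from 31.0 and 30.2 CPM in mouse 8 down to the controls, and Fcgr4 of mouse 16 lies well below the line.

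Because activating and inhibitory receptors compete for the same ligand, the count of each ligand-binding activating chain was divided by that of Fcgr2b within each library, which makes the ratio free of library size. The mean log2 ratio of Fcgr4 to Fcgr2b was -2.26 ± 0.76 (SD, n = 4) in α-IgLON5#1 and -4.89 ± 1.37 (n = 4) in pCtrl hippocampi, 6.16-fold apart. In cortices it was -2.74 ± 1.17 (n = 4) and -5.47 ± 1.15 (n = 5), 6.65-fold apart. The groups did not overlap in these comparisons (exact permutation p = 0.0286 and 0.0159), but after adjustment over the 12 ratio comparisons neither passed (adjusted p = 0.0762 for both). The ratio of Fcgr3 to Fcgr2b leaned the other way, at 0.69-fold of pCtrl in hippocampi (exact permutation p = 0.0857, adjusted p = 0.129) and 0.59-fold in cortices (p = 0.0476, adjusted p = 0.0952, exact permutation test). The ratio of Fcgr1 to Fcgr2b was 0.82-fold and 0.81-fold of pCtrl, with overlapping groups (exact permutation p = 0.229 and 0.159, adjusted p = 0.229 and 0.19). In all, 0 of the 12 comparisons, those with PBS included, passed after adjustment, and 6 had an unadjusted exact permutation p under 0.05. With 4 against 4 libraries the test could not give a p below 0.0286.

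**Figure D4:**
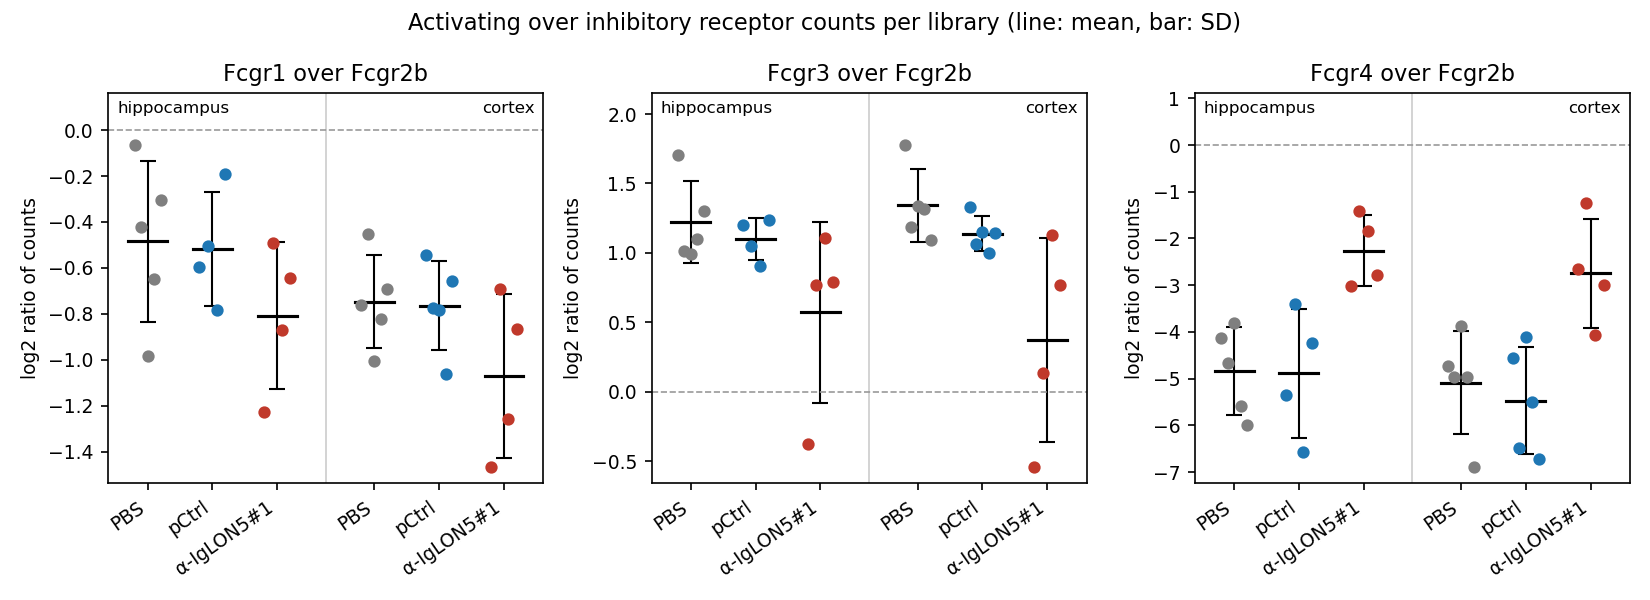
Log2 ratio (vertical axes) of the counts of Fcgr1, Fcgr3 and Fcgr4 to those of Fcgr2b in each library, by treatment and tissue. Points are libraries, lines are means and bars are SD, and dashed lines mark equal counts. Fcgr4 to Fcgr2b runs from -6.89 to -3.40 in controls and from -4.08 to -1.25 in α-IgLON5#1 libraries, the cortices of α-IgLON5#1 and PBS mice overlapping, and mouse 8 holds the lowest Fcgr3 to Fcgr2b ratio in both tissues.

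Between genes, levels were compared per kilobase of the longest protein-coding transcript. In PBS hippocampi Fcgrt (10.6 ± 2.13 CPM per kb), Fcer1g (8.64 ± 1.69) and Fcgr3 (7.28 ± 1.37; SD, n = 5) led, and these 3 overlapped within their SD. Fcgr2b (1.18 ± 0.14) and Fcgr1 (1.16 ± 0.21) followed well below these, at like levels, and Fcgr4 was lowest at 0.124 ± 0.077. In α-IgLON5#1 hippocampi the order was Fcer1g (36.2 ± 16.9 CPM per kb), Fcgr3 (18.1 ± 3.20), Fcgrt (11.5 ± 2.21), Fcgr2b (4.99 ± 2.61), Fcgr1 (3.73 ± 1.32) and Fcgr4 (2.98 ± 1.54; n = 4). Fcer1g and Fcgr3 overlapped within their SD, and so did the last 3 of these. Transcripts of Fcgr2b and Fcgr3 share an identical run of 129 bases, and 12.8% of the 50-base words of the Fcgr3 transcript also occur in Fcgr2b, so that reads from that stretch cannot be assigned to 1 of them with certainty. Between other members no 50-base word was shared.

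The 5 genes were also set against the level of microglia. Of the 10 homeostatic microglia genes, 0 were called in hippocampi of α-IgLON5#1 mice against pCtrl (0 by DESeq2, 6 at an unadjusted p under 0.05), although 5 passed the p threshold as higher, and the median log2 fold change was 0.48, beside 0.00 over all genes tested. Of all 20271 genes there, 2.45% were called, 857 passed the p threshold as higher and 4431 had an unadjusted p under 0.05. The summed level of the 10 genes was 450 to 765 CPM in α-IgLON5#1 and 362 to 414 CPM in pCtrl hippocampi, and 418 to 477 CPM against 363 to 445 CPM in cortices. Relative to the mean log2 level of these genes in the same library, Fcgr4 of α-IgLON5#1 mice was in hippocampi 13.3-fold, Fcer1g 2.94-fold, Fcgr2b 2.42-fold, Fcgr1 1.98-fold and Fcgr3 1.68-fold above pCtrl, with no overlap of the groups (exact permutation test, adjusted p = 0.0343 for each). In cortices the same ratios were 16.3, 3.08, 2.62, 2.12 and 1.54-fold (adjusted p = 0.0254 for each, exact permutation test). Of 24 such comparisons, which include those with PBS, 20 passed, all 4 of each of these 5 genes and 0 of 4 of Fcgrt. Without 1 of the α-IgLON5#1 hippocampi 10 passed, since 3 against 4 or 5 libraries did not reach an adjusted p under 0.05 in the exact permutation test. Against Csf1r and Cx3cr1 alone, a reference chosen after the data were seen, 18 passed. Fcgr3 then passed only in cortices over pCtrl, and in hippocampi over pCtrl its difference was 0.33 on the log2 scale, beside 0.75 with the 10 genes (adjusted p = 0.0653, exact permutation test). Fcgr1 did not pass in hippocampi over pCtrl, at 0.57 (adjusted p = 0.0857, exact permutation test), and Fcgrt passed as lower in both cortical comparisons, at -0.61 and -0.62 (adjusted p = 0.0423 for each, exact permutation test).

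Lists of genes that carry the signal below the receptors were set beside them, by their counts and medians. Over all 20271 genes against pCtrl, 2.21% were called higher in hippocampi and 1420 passed the p threshold alone. In cortices 2.14% were called higher and 3.46% passed the p threshold alone. The same shares stand beside the lists of the next paragraphs. Of 7 ITAM adaptors and kinases, 6 were called higher in hippocampi of α-IgLON5#1 mice over pCtrl, with a median log2 fold change of 1.31 beside 0.00 over all genes tested. Tyrobp, the adaptor DAP12 that works like the common γ chain for other receptors, was at 28.4 ± 9.07 CPM in α-IgLON5#1 and 11.6 ± 0.99 CPM in pCtrl hippocampi (SD, n = 4 each), a log2 fold change of 1.29 (adjusted p = 1.14e-05). The Src family kinase Lyn, which phosphorylates the ITAM, had a log2 fold change of 1.31 (adjusted p = 0.000109), and the kinase Btk one of 1.52 (adjusted p = 1.86e-05). In cortices 5 of 7 were called and 6 passed the p threshold, with a median of 1.17, and Tyrobp was at 0.92, below 2-fold (adjusted p = 0.000471).

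Of 12 genes of the signal relay, 7 were called higher and 10 passed the p threshold in hippocampi (median 1.18). Of all 20271 genes, 2.21% were called higher there and 1420 passed the p threshold alone. Vav1, an exchange factor for Rac, had a log2 fold change of 1.75 (adjusted p = 1.75e-05), the adaptor Blnk 1.32 (adjusted p = 5.18e-05), the lipid kinase subunit Pik3cg 1.45 (adjusted p = 5.36e-05) and the phospholipase Plcg2 1.05 (adjusted p = 7.32e-05). In cortices 4 of the 12 were called and 6 passed the p threshold (median 0.79), Vav1 being at 1.61 and Pik3cg at 1.26, whereas Blnk (0.57, adjusted p = 0.0697) did not pass.

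Of 8 genes of the phagocytic actin machinery, 5 were called higher in hippocampi and Elmo1 passed the p threshold as lower (-0.41, adjusted p = 0.0189), with a median of 1.05. Dock2, a Rac activator of blood cells, had a log2 fold change of 1.61 (adjusted p = 5.42e-06), Nckap1l, a subunit of the WAVE complex, 1.07 (adjusted p = 1.86e-05), the GTPase Rac2 2.65 (adjusted p = 3.26e-05) and Was, the Wiskott-Aldrich protein, 1.42 (adjusted p = 0.000537). In cortices 4 of 8 were called and 6 passed the p threshold (median 0.89).

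Several genes of inhibitory signalling were higher as well. Of 7 genes of ITIM receptors and their phosphatases, 4 were called and 6 passed the p threshold in hippocampi (median 1.02), and 3 were called in cortices (median 0.63). Ptpn6, the tyrosine phosphatase SHP-1, was at 15.5 ± 5.66 CPM in α-IgLON5#1 and 3.49 ± 0.30 CPM in pCtrl hippocampi (SD, n = 4 each), a log2 fold change of 2.14 (adjusted p = 1e-06), and in cortices of 1.81 (adjusted p = 9.15e-06). The receptor Pirb was at 2.88 (adjusted p = 0.000112) and Cd300a at 1.02 (adjusted p = 0.00143). Inpp5d, the lipid phosphatase SHIP1 on which FcγRIIB acts, passed the p threshold in hippocampi at 0.84 (adjusted p = 0.000113), below 2-fold, and was at 0.35 in cortices (adjusted p = 0.123).

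No other Fc receptor or Fc receptor-like gene of the list was called. Of 12 listed, 6 were tested and 0 were called in hippocampi or in cortices (0 by DESeq2, and 3 in each tissue at an unadjusted p under 0.05), with median log2 fold changes of 0.34 and 0.30. Of all 20271 genes tested, 4431 in hippocampi and 3116 in cortices had an unadjusted p under 0.05. Fcrls, a microglial Fc receptor-like gene, passed the p threshold at 0.69 in hippocampi (adjusted p = 0.000742), and Trim21, a cytosolic antibody receptor, had 0.59 there (adjusted p = 0.142) and 0.84 in cortices (adjusted p = 0.0415). The chains of the high-affinity IgE receptor, Fcer1a and Ms4a2, had at most 2 counts in any α-IgLON5#1 library and were not tested.

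**Figure D5:**
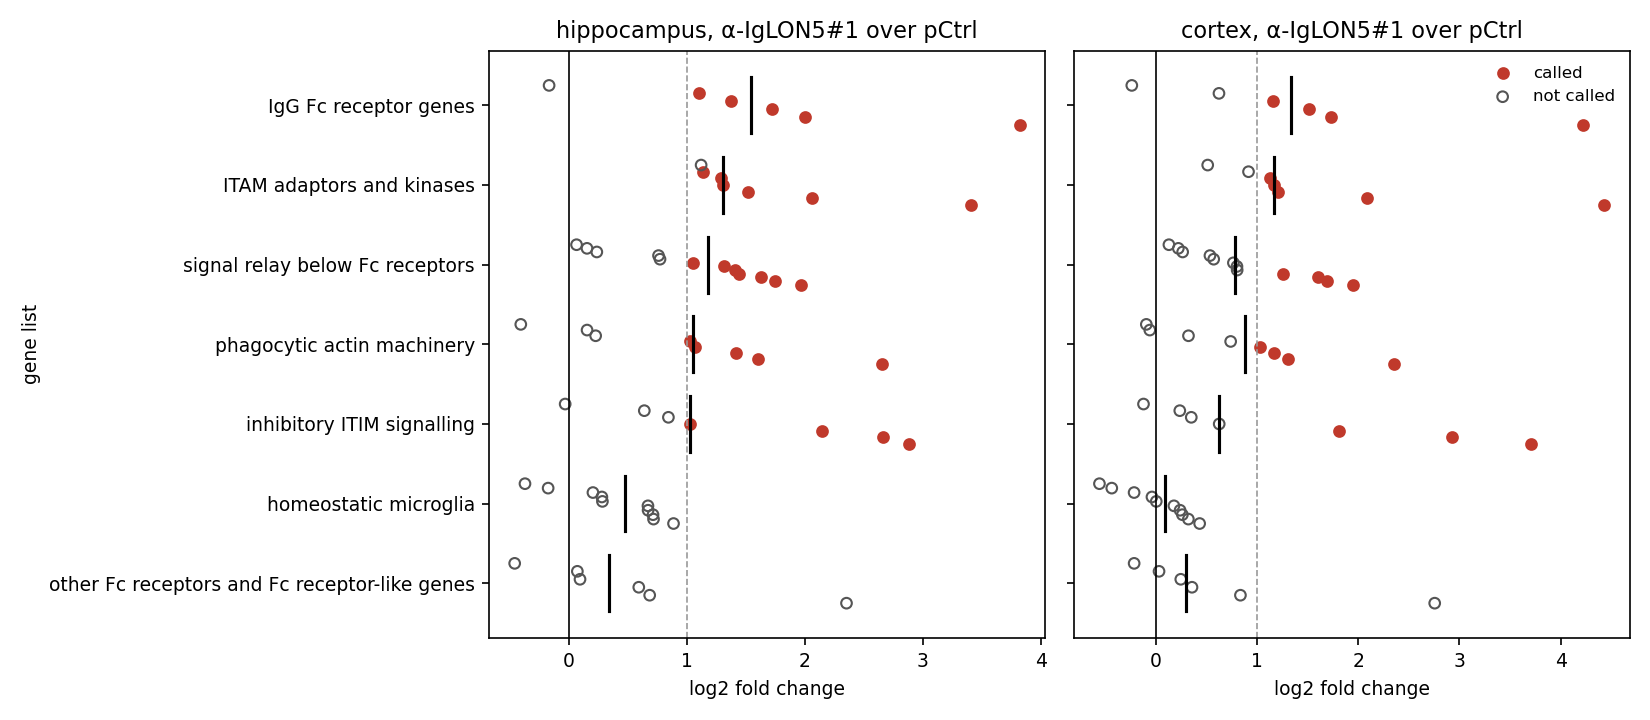
Log2 fold change of α-IgLON5#1 over pCtrl (horizontal axes) for the tested genes of each list, in hippocampi and cortices. Filled points were called, open points were not, black bars are list medians and the dashed line marks 2-fold. The 5 called receptor genes of hippocampi lie between 1.10 and 3.82, and no homeostatic microglia gene passes 2-fold in either tissue.

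Mouse IgG, a ligand of these receptors, was present as transcripts. All 4 IgG heavy chain constant genes were called higher in hippocampi of α-IgLON5#1 mice, with Ighg2b at 206 ± 197 CPM against 0.232 ± 0.327 CPM in pCtrl (SD, n = 4 each; adjusted p = 3.37e-06), and 3 of 4 in cortices. Of all genes tested, 2.21% were called higher in hippocampi and 2.14% in cortices. The log2 fold changes of the others in hippocampi were 8.76 for Ighg3, 6.85 for Ighg1 and 2.27 for Ighg2c, and Ighg2c was at -0.25 in cortices (adjusted p = 0.72). Sequence shared among these 4 genes was not measured here, so that the assignment of reads to single genes is uncertain. Their summed level in α-IgLON5#1 hippocampi was 417 CPM in mouse 8, 21.4 in mouse 9, 121 in mouse 16 and 534 in mouse 17. In their cortices it was 79.2, 22.9, 62.2 and 352 CPM. Mouse 17 thus had the most and mouse 9 the least in both tissues, whereas the highest Fcgr1 and Fcgr2b levels were those of mouse 8 and the highest Fcgr4 and Fcer1g levels those of mouse 9.

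Cells other than microglia can carry these receptors, so their markers are set beside the result. For the counts against pCtrl here and in the next paragraph, 2.45% of all genes were called in hippocampi and 2.16% in cortices. Of 9 monocyte and neutrophil markers, 6 were tested and 1 was called in hippocampi (Ly6c2, 3.81, adjusted p = 0.000877) and 4 in cortices (Ly6c2, Ccr2, Plac8 and Chil3). Their summed level was 25.9, 3.60, 4.72 and 10.1 CPM in hippocampi of mice 8, 9, 16 and 17 and 40.9, 9.09, 3.05 and 5.90 CPM in their cortices, against 2.31 to 5.64 CPM in pCtrl hippocampi and 2.0 to 4.53 CPM in pCtrl cortices. Mouse 8 stood out in both tissues. The neutrophil marker Ly6g had at most 2 counts in α-IgLON5#1 hippocampi and 0 in cortices, Mmp8 at most 3 and 18, and Retnlg at most 5 and 16. S100a8 and S100a9, also of neutrophils, reached 49 and 81 counts in α-IgLON5#1 hippocampi and 146 and 273 in cortices, and were not called in either tissue (adjusted p = 0.456 to 0.986). With the mouse 8 hippocampus left out, all 5 genes called against pCtrl were still called, and with the mouse 8 cortex left out 3 of 4 were.

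Of 8 border macrophage markers, Ms4a7 was called higher in hippocampi (1.94, adjusted p = 0.00127) and Lyve1 lower (-1.81, adjusted p = 0.000581), with a median of -0.64, and their sum was 37.4, 6.87, 15.5 and 32.0 CPM in hippocampi of the α-IgLON5#1 mice against 20.9 to 32.8 CPM in pCtrl. Of 6 B cell markers, which mark cells that carry Fcgr2b, 4 were called higher in hippocampi (Cd79b, Ms4a1 and Cd79a among them, median 2.40) and 2 in cortices, with sums of 2.53 to 8.86 CPM in α-IgLON5#1 and 2.07 to 2.72 CPM in pCtrl hippocampi. Of 5 NK cell markers 1 was tested and 0 were called in hippocampi (sum 1.29 to 1.72 CPM against 0.491 to 1.08 CPM), and of 4 mast cell markers 3 were tested and 0 were called there (0.0563 to 1.60 CPM against 0.214 to 2.31 CPM). Of 8 endothelial markers 0 were called and of 5 tested choroid plexus markers 0, the medians being 0.08 and -1.05. In these 4 lists DESeq2 called 0 as well, and 2 choroid plexus markers and 0 others were at an unadjusted p under 0.05. In pCtrl against PBS hippocampi the border macrophage median was 0.72, and the medians of 6 hippocampal and 4 cortical marker genes were -0.65 and 0.54, with 0 of these genes called (0 by DESeq2, and 2, 5 and 2 at an unadjusted p under 0.05). In α-IgLON5#1 against pCtrl hippocampi these last medians were 0.68 and -0.48. The part of these cells and of the regional markers in the receptor levels was not tested.

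On chromosome 1, the interval of 276 kb from Fcgr2b to Fcer1g holds 17 annotated genes, of which 10 were tested. Of these, the 4 Fc receptor genes were called in hippocampi of α-IgLON5#1 mice over pCtrl and the others were not. The log2 fold changes were 0.56 for Cfap126, -0.02 for Sdhc, -0.18 for Tomm40l and 0.18 for Apoa2 (adjusted p = 0.23 to 0.88). Pcp4l1 passed the p threshold at -0.37 (adjusted p = 0.0447), below 2-fold. Sdhc, a subunit of succinate dehydrogenase, lies between Fcgr3 and Fcer1g. Fcgr2b overlaps the antisense gene Gm38204, Fcgr3 the microRNA gene Mir6546, Fcgr4 the small nuclear RNA gene Gm26110 and Fcgrt the antisense gene Gm45669, and the strand setting of the counting is not given in the sources used here.

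Across the 27 libraries, the 10 pairs among Fcgr1, Fcgr2b, Fcgr3, Fcgr4 and Fcer1g had Pearson r of 0.82 to 0.94 of log2 CPM, and of 0.23 to 0.74 for deviations from the group means, that is, without the difference between groups. Fcgr1 with Fcgr2b was the closest pair (0.94 and 0.74). Fcgrt had r of -0.27 to -0.10 with the 5 others. These are descriptions over libraries that share mice and groups. Among all genes tested, the 5 nearest to Fcer1g were Nckap1l, Dock2, Ncf1, Vav1 and Rac2 (r = 0.977 to 0.985, deviations 0.870 to 0.936), and the 5 nearest to Fcgr2b were Myo1g, Il1b, Ms4a6d, Lcp1 and Neurl3 (0.962 to 0.973, deviations 0.797 to 0.931). The 5 nearest to Fcgr1 were Naip2, Myo1g, Tmem176b, Sp110 and Cyba (0.955 to 0.968, deviations 0.818 to 0.845). Those nearest to Fcgr4 were Tlr2, Ikzf1, Irf5, Cxcl16 and Btk (0.932 to 0.947, deviations 0.665 to 0.758). Those nearest to Fcgr3 were Cd68, Ctsh, Laptm5, Ncf1 and C1qb (0.934 to 0.948), with the lowest deviations, 0.598 to 0.702. Fcgrt had other neighbours, Lamb2, Mxra8, Slc16a9, Vtn and Pltp (0.880 to 0.925, deviations 0.864 to 0.921), none of which was near any of the 5 receptor genes by the same rule.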

How the data were processed

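RNA was extracted from bulk tissue, libraries were made with a stranded mRNA kit per the labels, and paired-end reads were mapped to GRCm38 with STAR. The authors deposited raw counts per gene for all 27 libraries. The counting program, annotation release and strand setting are not given in the sources used here. Identifiers were matched to GENCODE M21, whose coordinates are used. The low-count filter asked for 10 or more counts in 4 or more libraries and kept 20271 of 55487 genes. Counts were normalized by TMM and tested in 1 model over the 6 groups with edgeR 4.0.16 (R 4.3.3, quasi-likelihood F test, Benjamini-Hochberg adjustment over all genes tested). Calls required both an adjusted p below 0.05 and more than a 2-fold change. Ratios between genes used log2 counts with 0.5 added and two-sided exact permutation tests (scipy 1.17.1), adjusted over 12 or 24 comparisons. Scripts were tested on simulated data. Depth was 19385642 to 58550621 counts, with a median of 34061205. The least different of 48 within-group pairs of libraries had a chi-square of 4.44 per degree of freedom, so none was a repeat. The labels number the libraries, which was read as the mouse, and give no litter or batch, so p-values measure the spread between these samples. Alternatives were DESeq2 1.42.0, other size factors, other filters, subsets of groups or mice, a mouse block and leaving out each library. Members, gene lists and naming rule were chosen with earlier results of these data known. Genes named were the members, up to 4 genes with the smallest adjusted p of each list with calls in hippocampi against pCtrl, and the 5 genes most correlated with each member. Genes named beyond these were chosen after their values were seen. Values of some genes that this rule selects are not reported here. Protein sequences were not analysed here.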

Additional observations from a re-analysis of the deposited data

Results flagged for a closer look

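Within the pCtrl hippocampi, mouse 15 stood apart from the other 3 for Fcgr3, at a log2 CPM of 3.788 against 3.374 to 3.402, a gap that took up 0.931 of the group's range. It was the 1 flagged among 36 combinations of gene and group examined, where chance flags about 1 in 20. The same library had the highest Fcgr1, Fcgr2b, Fcgr4 and Fcer1g levels of the pCtrl hippocampi, and it lay below all 4 α-IgLON5#1 hippocampi for each of these genes.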

How the results depend on the processing

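With only mice 8 to 17, which leaves 2 pCtrl hippocampi and 3 pCtrl cortices, 0 genes were called in hippocampi and 0 in cortices against pCtrl (5 and 4 with all mice), while log2 fold changes of the 5 receptor genes stayed above 0. Of all 20271 genes, 50 and 9 were called in that subset. Leaving out 1 library at a time gave 5 in hippocampi and 3 to 4 in cortices. Leaving out 1 library at a time, the number of comparisons, of 24, that passed relative to the microglia genes ranged from 10 to 20 (20 with all libraries). It was 10 without any 1 α-IgLON5#1 hippocampus and 15 without any 1 pCtrl hippocampus, where the exact test has fewer arrangements. With DESeq2, other size factors, no count filter or only the groups compared, 5, 5, 4 and 4 genes were called against pCtrl and PBS in hippocampi and cortices. At 10 counts in every library Fcgr4 was not tested, and 4 and 3 were called against pCtrl. With no fold threshold Fcgr3 was also called in cortices, which gives 5. Correlations of same-numbered hippocampi and cortices ran from -0.05 to 0.44 over 13 mice, 8 of them above 0.1. The descriptions treat the same number as the same mouse, but the main model held no term for it. Its comparisons between tissues thus treat the libraries as independent. With the mouse number as a block, 0 genes were called between PBS cortices and hippocampi and 0 in both tissue differences, as without it. Over all genes, 496 were called in hippocampi against pCtrl, 1420 with no fold threshold, 291 with only the groups compared and 229 with 10 counts in every library, and in cortices 438, 701, 259 and 197. Between pCtrl and PBS hippocampi 13 were called, 69 by DESeq2 and 0 with only those groups. Leaving out 1 library gave 127 without pCtrl mouse 15, 78 without PBS mouse 38, 77 without pCtrl mouse 75, 31 without PBS mouse 33 and 0 to 3 without any 1 of the other 5. Depth limits Fcgr4 in controls most, at 1 to 33 counts a library.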
